A study of Homo sapiens with 4 samples.

Results

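The 36 interferon-stimulated genes described here were chosen by name, as protein-coding genes that interferon signalling is known to switch on, out of 40877 genes named alone in the deposited gene table. They were followed gene by gene in 4 single-cell libraries of 2 human cancer cell lines: H1299, a non-small cell lung cancer line, and HCT116, a colorectal cancer line. In each line 1 library came from cells given the solvent DMSO. The other came from cells given DAC (decitabine, which blocks DNA methyltransferases) at 500 nM over 72 h and SB939 (an inhibitor of histone deacetylases) at 500 nM over 18 h. Medium was renewed every 24 h. All cells were at passage 5 to 10. This pair of compounds is written DAC+SB below. Each group is 1 library of 1 cell line, so there is no replicate and no test. Every interval below is a 95% interval of counting error within a library, and spread between cultures was not measured.

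Interferons are secreted proteins that cells release when their sensors meet foreign or misplaced nucleic acid. Type I and type III interferons bind different receptors, and both lead through Janus kinases to a complex that holds STAT2 and IRF9 and binds the interferon-stimulated response element (ISRE) at target genes. The genes so switched on code for proteins that trap viral RNA, block entry or budding, tag proteins with ISG15, or feed back on the pathway. Another DNA element of interferon-responsive genes is called GAS. DNA methyltransferase inhibitors are known to raise such genes in cancer cells, and transcripts of transposable elements (TE) are among the triggers studied.

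The upstream sequence of 9 members is printed to set the response element beside the results, for members at a higher, a similar and a lower level after DAC+SB. The sequences are RefSeq promoter windows of the GRCh38.p14 build, 5′ to 3′ on the strand of the gene, from 150 bases before the annotated start to 10 bases from it. Capitals mark each match to the core of the ISRE, searched as GAAA, any 2 bases and GAAA on both strands, where matches may overlap. Counted over all features, ISG15 to IFITM1 had a higher level with DAC+SB in both lines, IFITM3 had nearly the same level, and DTX3L and OAS3 had a lower one. IFITM1 was below the count minimum in H1299, and in HCT116 the higher level of IFIT1 and IFI27 rested on a feature listed with DAC+SB only, as given below.
ISG15 (chr1:1013347-1013506, + strand): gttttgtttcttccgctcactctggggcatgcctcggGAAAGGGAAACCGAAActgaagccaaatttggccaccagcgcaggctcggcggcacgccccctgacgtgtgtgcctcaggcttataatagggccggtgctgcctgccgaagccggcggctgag
IFIT1 (chr10:89392473-89392632, + strand): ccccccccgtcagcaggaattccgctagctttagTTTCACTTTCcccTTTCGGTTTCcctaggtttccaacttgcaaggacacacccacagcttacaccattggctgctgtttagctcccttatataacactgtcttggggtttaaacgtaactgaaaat
IFI27 (chr14:94110586-94110745, + strand): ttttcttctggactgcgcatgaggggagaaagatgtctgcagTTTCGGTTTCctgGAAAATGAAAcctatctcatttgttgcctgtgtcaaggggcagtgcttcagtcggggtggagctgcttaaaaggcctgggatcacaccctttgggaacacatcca
ISG20 (chr15:88638866-88639025, + strand): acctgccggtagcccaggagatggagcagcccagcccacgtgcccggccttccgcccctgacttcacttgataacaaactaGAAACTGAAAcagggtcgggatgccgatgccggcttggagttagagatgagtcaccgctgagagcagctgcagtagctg
BST2 (chr19:17405621-17405780, - strand): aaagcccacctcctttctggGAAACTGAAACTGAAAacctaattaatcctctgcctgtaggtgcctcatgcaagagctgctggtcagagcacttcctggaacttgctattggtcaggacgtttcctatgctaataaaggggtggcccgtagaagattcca
IFITM1 (chr11:313890-314049, + strand): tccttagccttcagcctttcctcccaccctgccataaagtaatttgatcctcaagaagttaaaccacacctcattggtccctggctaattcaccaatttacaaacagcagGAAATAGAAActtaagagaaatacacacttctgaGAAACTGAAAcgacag
IFITM3 (chr11:320851-321010, - strand): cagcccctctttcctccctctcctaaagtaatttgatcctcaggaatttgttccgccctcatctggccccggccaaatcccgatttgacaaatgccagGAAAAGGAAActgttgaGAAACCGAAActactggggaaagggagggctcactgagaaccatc
DTX3L (chr3:122564188-122564347, + strand): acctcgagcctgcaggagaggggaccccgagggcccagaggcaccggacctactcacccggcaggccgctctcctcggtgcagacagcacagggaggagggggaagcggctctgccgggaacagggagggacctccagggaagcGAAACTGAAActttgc
OAS3 (chr12:112938324-112938483, + strand): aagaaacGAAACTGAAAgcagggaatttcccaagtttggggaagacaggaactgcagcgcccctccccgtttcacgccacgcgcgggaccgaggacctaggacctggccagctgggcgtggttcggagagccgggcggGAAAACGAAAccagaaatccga

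RefSeq windows were matched for 28 of the 36 members, and for IRF7, USP18, TRIM22, IFIT2, OAS2, OASL, IFITM2 and MX2 no window was used. Over the full window of 300 bases, 250 before and 50 from the start, 20 of the 28 members (71.4%) held the ISRE core. Of all 27305 genes with a RefSeq window, 1195 (4.38%) held it. The GAS letters, TTC, any 3 bases and GAA, stood in 8 of 28 members (28.6%) and in 9.38% of all genes. In HCT116 the core was present in both members with a window that were at least 4-fold higher, in 9 of 12 that changed less, and in both that were at least 4-fold lower. In H1299 it was present in 4 of 4 that were at least 4-fold higher and in 9 of 12 that changed less. In each line it was present in 7 of 12 members below the count minimum. DTX3L and PARP9 start 339 bases apart on opposite strands of chromosome 3, and the match in the DTX3L window and the match in 1 PARP9 window are the same 10 bases, at position 122564332 to 122564341. STAT2, IRF9, HERC6, OAS1, CMPK2, SAMD9L, XAF1 and IFI35 had no match to the ISRE core in these windows. Only a gap of 2 bases was searched, so these genes may still hold the element in another form. Windows of OAS1, CMPK2, XAF1 and IFI35 hold GAAA, 1 base and GAAA on either strand, a form that was not counted over all genes.

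The H1299 libraries held 3578 cells with DMSO and 3726 with DAC+SB, and the HCT116 libraries 3658 and 4327. Total gene plus TE counts were between 62428673 and 64524196 in 3 libraries and 38927267 in the HCT116 DAC+SB library. That library also had a median of 8449 counts per cell, against 15785 to 17370 in the others. Its median share of mitochondrial counts was 18.6%, against 8.33% to 15.8%. The TE share of counts in H1299 was 0.199% in the DMSO library against 3.09% after DAC+SB, and in HCT116 it was 0.319% against 5.56%. Between 18 and 30 cell barcodes were shared by any pair of libraries. Levels are in CPM, counts scaled to 1000000 gene plus TE counts of a library. Summed counts of 10 H1299 marker genes were 2939 and 1458 CPM in the H1299 libraries and 252 and 358 in the HCT116 libraries. The 10 HCT116 marker genes summed to 0.341 and 16.4 CPM in H1299 and to 136 and 82.5 in HCT116. With DMSO in HCT116, 8 of these 10 had counts, from 5 (LGALS4) to 5054 (EPCAM), while CDX1 and TFF3 were at 0. The 8 immune and blood cell markers summed to 0.325 and 7.74 CPM in H1299 and to 2.01 and 8.50 in HCT116. PTPRC, which marks white blood cells, was at 0 counts in each DMSO library and at 8 (H1299) and 5 (HCT116) with DAC+SB. The part of these shifts in the results below was not tested.

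A ratio is the DAC+SB level over the DMSO level of the same line. A member was judged when its higher library held at least 100 counts, which 19 members did in H1299 and 20 in HCT116. Of 36 members, 26 had a count in all 4 libraries, 8 had 0 counts in H1299 DMSO and 3 had 0 in HCT116 DMSO. In H1299, 5 of 19 members were at least 4-fold higher with DAC+SB (IRF7, IFIT1, ISG20, BST2 and IFI27), beside 11.0% of the 14610 genes judged the same way. None was at least 4-fold lower, beside 0.349% of those genes. At the 2-fold rule 7 members were higher (adding ISG15 and IFI6), beside 18.3%, and 2 were lower (DTX3L and OAS3), beside 7.34%.

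In HCT116, 4 of 20 members were at least 4-fold higher (IRF7, OASL, IFITM1 and IFI27), beside 9.63% of 13539 genes. DTX3L and PARP9 were at least 4-fold lower, which is 2 of 20 beside 3.69% of genes. At the 2-fold rule 9 members were higher (adding ISG15, IFIT1, ISG20, BST2 and IFI6, with IFIT1 there through a feature listed with DAC+SB only), beside 16.2%, and 4 were lower (adding USP18 and OAS3), beside 20%. Of the 18 members judged in both lines, IRF7 and IFI27 were at least 4-fold higher in each, beside 4.68% of 12644 genes, IFI27 through a feature listed with DAC+SB only, as described below. None was at least 4-fold lower in each, beside 0.190% of those genes. The median log2 ratio of the members judged was 0.23 in H1299, with 11 above 0 and 8 below, and 0.21 in HCT116, with 11 above and 9 below. Over all genes judged the medians were -0.07 and -0.23. The interferon-stimulated genes thus did not move as a block, and the account below goes by role.

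**Figure D1:**
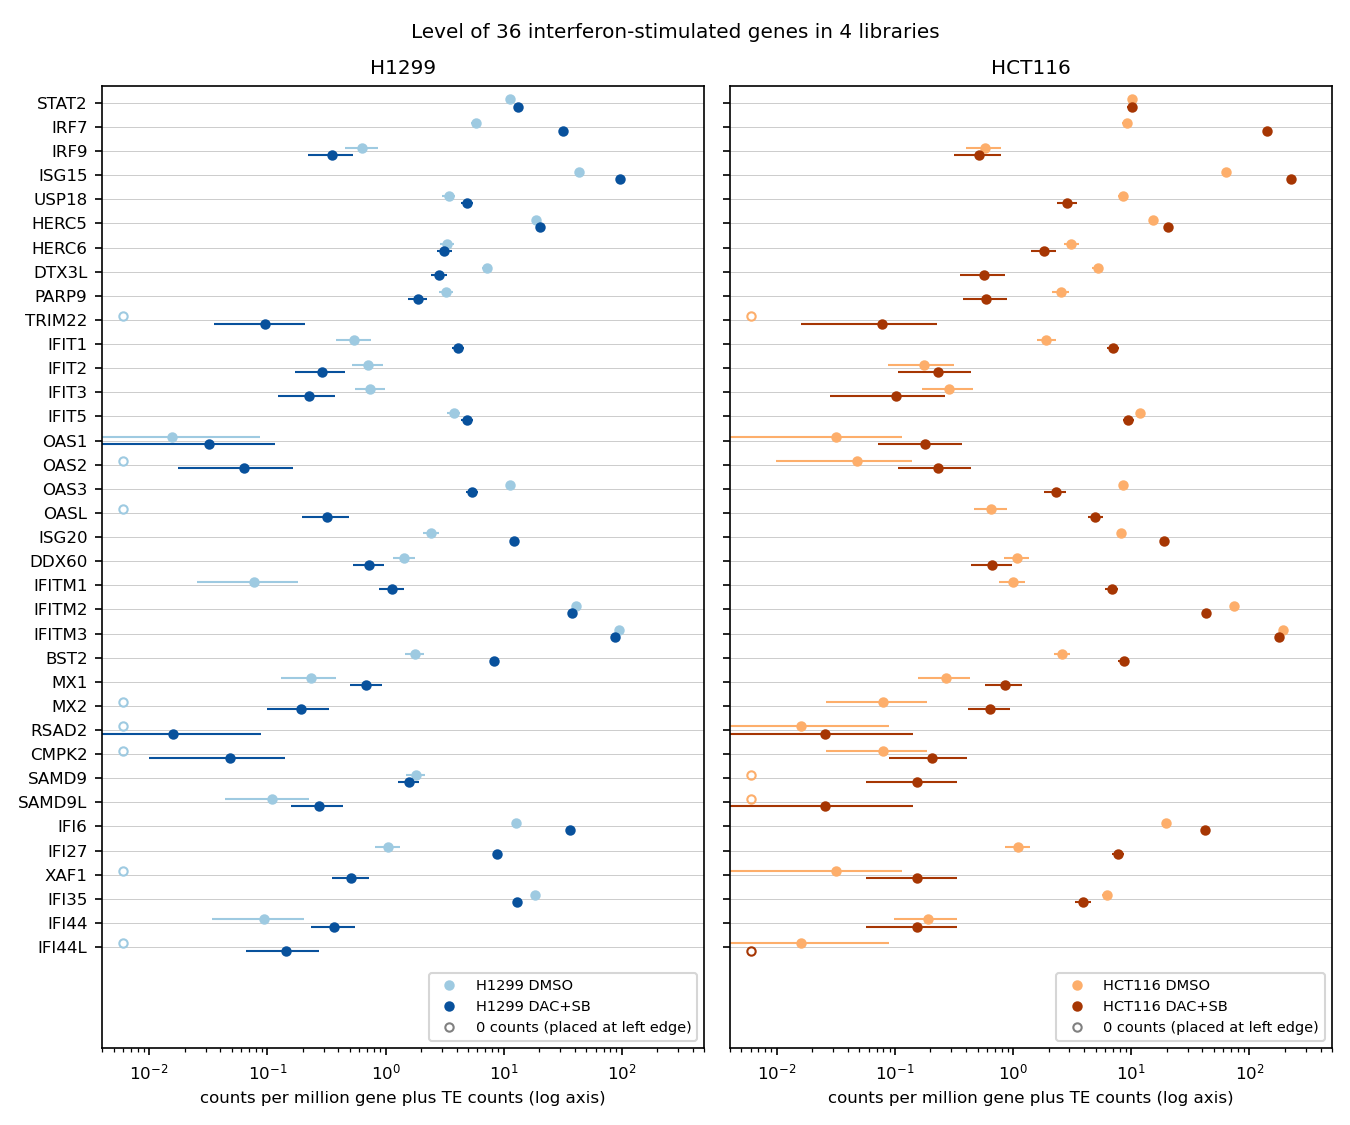
Level of each of the 36 members, in CPM on a log axis, in the DMSO (pale) and DAC+SB (dark) libraries of H1299 (left) and HCT116 (right). Bars are 95% counting intervals and open circles at the left edge mark 0 counts. IRF7, ISG15, IFI6 and IFI27 lie to the right with DAC+SB in both lines, while DTX3L, PARP9 and OAS3 lie to the left.

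Among the transcription factors, IRF7 passed the 4-fold rule in both lines and STAT2 in neither. IRF7, the factor that amplifies type I interferon transcription, went from 5.83 to 32.1 CPM in H1299 (376 and 2002 counts). In HCT116 it went from 9.16 to 141 (574 and 5487 counts). The log2 ratios were 2.46 (2.30 to 2.62) and 3.94 (3.82 to 4.07), so IRF7 was higher in both lines. Over all its features the ratio was the larger one in HCT116, but not in every feature, as given below. Without a feature listed in HCT116 DAC+SB only, the HCT116 log2 ratio was 2.81 (2.68 to 2.94). STAT2, a subunit of the complex that binds the ISRE, stood at 11.2 and 13.2 CPM in H1299 and at 10.1 and 10.2 in HCT116. IRF9, the DNA-binding subunit of that complex, had 41 and 22 counts in H1299 and 36 and 20 in HCT116, below the minimum. A name that joins IRF9 with an overlapping gene held more counts than IRF9 alone, and with it added the IRF9 log2 ratios were -0.24 and -0.96. The HCT116 value rested on a numbered feature of that name, with 134 counts in DMSO and not listed with DAC+SB. The feature of that name without a number had 131 and 76 counts in HCT116. IRF1, a factor of the response that is not a member, had log2 ratios of -0.20 and 0.55.

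Genes of the ISG15 pathway did not move together. ISG15, a ubiquitin-like protein that is joined to other proteins, went from 43.5 to 96.1 CPM in H1299 (2808 and 6000 counts) and from 63.4 to 226 in HCT116 (3971 and 8791 counts). Its log2 ratios were 1.14 (1.08 to 1.21) and 1.83 (1.78 to 1.89), under the 4-fold rule and past the 2-fold rule in both lines. Of HERC5, HERC6 and USP18, none was 2-fold higher in either line. HERC5, the main ligase that joins ISG15 to targets, stood at 18.9 and 20.4 CPM in H1299 and at 15.3 and 20.3 in HCT116. HERC6, its relative, had log2 ratios of -0.07 (-0.35 to 0.22) and -0.77 (-1.18 to -0.37). USP18, the protease that removes ISG15 and damps the receptor, went from 3.43 to 4.90 CPM in H1299 and from 8.46 to 2.88 in HCT116, so its log2 ratios of 0.52 (0.26 to 0.77) and -1.56 (-1.86 to -1.26) had opposite signs.

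The 2 members past the 4-fold rule in the lower direction are neighbours. DTX3L, a ubiquitin ligase that works in a complex with PARP9, had 463 and 177 counts in the H1299 libraries, and 327 and 22 in those of HCT116. Its log2 ratios were -1.34 (-1.60 to -1.09) and -3.21 (-3.90 to -2.58). PARP9, a protein of the ADP-ribosyltransferase family, had 209 and 117 counts in H1299 (log2 ratio -0.79, -1.13 to -0.46) and 158 and 23 in HCT116 (-2.09, -2.79 to -1.46). A PARP9 feature with 17 counts was listed in HCT116 DMSO only, and without it the ratio of -1.93 missed the 4-fold rule. Both genes had a lower level with DAC+SB in both lines. The annotated genes overlap at their 5′ ends on opposite strands, and the sources used here do not give whether counting used strand. TRIM22, a ligase with antiviral activity, had 0 and 6 counts in H1299 and 0 and 3 in HCT116.

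The IFIT genes, whose proteins bind viral RNA, lie side by side on chromosome 10 and did not move together. IFIT1, which binds RNA that lacks the cap methylation of the host, went from 35 to 257 counts in H1299 (log2 ratio 2.92, 2.41 to 3.48). In HCT116 it went from 120 to 275 counts (1.88, 1.57 to 2.20), through a feature listed with DAC+SB only, without which the log2 ratio was 0.05 (-0.39 to 0.47). IFIT2 and IFIT3, which form complexes with IFIT1, stayed under 50 counts in every library. IFIT2 had 46 and 18 counts in H1299 and 11 and 9 in HCT116. IFIT3 had 48 and 14 in H1299 and 18 and 4 in HCT116. The H1299 log2 ratios were -1.31 (-2.18 to -0.49) and -1.73 (-2.70 to -0.85), opposite in sign to IFIT1 in the same libraries. IFIT5 went from 3.80 to 4.92 CPM in H1299 and from 11.9 to 9.45 in HCT116, with log2 ratios of 0.37 (0.13 to 0.62) and -0.34 (-0.52 to -0.15).

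The 2-5A synthetases make the messenger that turns on RNase L, and OAS3 was the one of them with enough counts to be judged. OAS3 went from 11.3 to 5.40 CPM in H1299 and from 8.54 to 2.29 in HCT116, with log2 ratios of -1.07 (-1.26 to -0.88) and -1.90 (-2.24 to -1.58). OASL, a relative without synthetase activity, had 0 and 20 counts in H1299, below the minimum, a ratio of 6.89 with 0 set to 3 counts. Of the 20 counts, 12 were in a feature listed with DAC+SB only and 8 in the feature without a number. Over features listed in both libraries the H1299 log2 ratio, with 0 set to 3 counts, was 1.46. In HCT116 OASL had 41 and 194 counts (log2 ratio 2.93, 2.44 to 3.45). OAS1 and OAS2 had at most 9 counts in any library. OAS1 had 1 and 2 counts in H1299 and 2 and 7 in HCT116, and OAS2 had 0 and 4, and 3 and 9. ISG20, an exonuclease that degrades RNA, went from 2.43 to 12.3 CPM in H1299 (log2 ratio 2.34, 2.09 to 2.60) and from 8.21 to 18.9 in HCT116 (1.21, 1.04 to 1.37). Over features listed in both libraries of a line, the ISG20 log2 ratios were 3.16 and 2.66, past the 4-fold rule in both lines. These values leave out a feature listed with DMSO only, as described below. In HCT116 the ISG20 feature without a number had a log2 ratio of 1.33 (0.99 to 1.67), under the 4-fold rule. DDX60, a helicase that helps RNA sensors, had 93 and 45 counts in H1299 and 68 and 26 in HCT116, below the minimum.

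Among the membrane proteins, IFITM3 stayed near its DMSO level while BST2 and IFITM1 were higher. IFITM3, which blocks the fusion of viruses with endosomes, went from 93.9 to 88.3 CPM in H1299 and from 193 to 179 in HCT116. Its log2 ratios of -0.09 (-0.14 to -0.04) and -0.11 (-0.15 to -0.07) differed between the lines by 0.02 (-0.05 to 0.09). IFITM2, its close relative, had log2 ratios of -0.13 (-0.21 to -0.05) and -0.78 (-0.87 to -0.70). IFITM1, the member of the family found at the cell surface, had 5 and 71 counts in H1299 and 62 and 266 in HCT116. The H1299 log2 ratio of IFITM1 was 3.88 (2.59 to 5.54) but its counts were under the minimum, and the HCT116 ratio was 2.79 (2.38 to 3.21). The 3 genes are alike in sequence and IFITM1 and IFITM2 overlap in the annotation, so how reads were split between them is uncertain. BST2, or tetherin, which holds budding virus at the membrane, went from 1.77 to 8.33 CPM in H1299 (log2 ratio 2.24, 1.94 to 2.54) and from 2.60 to 8.68 in HCT116 (1.74, 1.46 to 2.02).

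Several genes often used to read out interferon were hardly detected. RSAD2 (viperin, which makes a chain-terminating nucleotide) had 0 and 1 counts in H1299 and 1 and 1 in HCT116. CMPK2, a nucleotide kinase beside RSAD2, had 0 and 3, and 5 and 8. MX1, a GTPase that blocks viral cores, had 15 and 43 counts in H1299 and 17 and 33 in HCT116, with log2 ratios of 1.57 (0.69 to 2.52) and 1.64 (0.76 to 2.58). MX2 had 0 and 12, and 5 and 25. IFI44 had 6 and 23 in H1299 and 12 and 6 in HCT116, and IFI44L had 0 and 9, and 1 and 0. No member of this set reached 100 counts. For ratios a count of 0 was set to a floor of 3 counts, which is 0.0465 CPM in H1299 DMSO and 0.0771 in HCT116 DAC+SB.

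IFI6 and IFI27 code for small proteins of 1 family. IFI6, which is found in mitochondria, went from 12.8 to 36.3 CPM in H1299 (log2 ratio 1.51, 1.39 to 1.63) and from 19.8 to 42.3 in HCT116 (1.09, 0.99 to 1.20). IFI27 had 68 and 549 counts in H1299 (3.06, 2.70 to 3.45), and 69 and 301 in HCT116 (2.81, 2.43 to 3.21). IFI6 was higher with DAC+SB in both lines, though in HCT116 its feature without a number had 283 and 208 counts, with a log2 ratio of 0.24 (-0.02 to 0.51). IFI27 was higher too with all its features, but over features listed in both libraries its HCT116 log2 ratio was 0.46 (-0.07 to 0.98), an interval that includes 0. XAF1, which antagonises an inhibitor of apoptosis, had 0 and 32 counts in H1299, a ratio of 11.0 with 0 set to 3 counts, and 2 and 6 in HCT116. IFI35 went from 18.3 to 13.1 CPM in H1299 and from 6.21 to 3.93 in HCT116, with log2 ratios of -0.49 and -0.66. SAMD9, an antiviral factor that restricts poxviruses, had 116 and 98 counts in H1299 and 0 and 6 in HCT116. Its paralog SAMD9L had 7 and 17, and 0 and 1.

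The ratios differed between the lines by more than counting error for 14 of the 18 members judged in both, beside 76.1% of the 12276 genes compared the same way. A count of 14 is thus near the share of all genes. The H1299 minus HCT116 difference in log2 ratio was 2.07 for USP18 (1.69 to 2.46) and 1.87 for DTX3L (1.20 to 2.54). It was 1.30 for PARP9 (0.59 to 2.02), 1.14 for ISG20 (0.84 to 1.43) and 1.04 for IFIT1 (0.45 to 1.64). In HCT116 the ratio was the higher one for IRF7 (-1.48, -1.68 to -1.28), ISG15 (-0.69, -0.77 to -0.61) and HERC5 (-0.30, -0.47 to -0.12). The intervals of STAT2, IFITM3, IFI27 and IFI35 included 0. Some of these differences rested on features of a gene that 1 library of a line listed and the other did not, which are described below. Over features listed in both libraries of a line, 16 of the 18 intervals left out 0, beside 75.9% of genes, and the difference was 0.50 for ISG20 (0.10 to 0.89), 2.88 for IFIT1 (2.22 to 3.53) and -0.35 for IRF7 (-0.55 to -0.14). It was 0.91 for IFI27 (0.26 to 1.55), and the difference of USP18 was 1.83 (1.44 to 2.22) and that of PARP9 1.14 (0.43 to 1.86). ISG15, HERC5 and DTX3L had the same values under both ways of counting. The order of the lines was not the same in every feature. ISG15 feature 1 had log2 ratios of 1.20 in H1299 and 2.14 in HCT116. Its feature without a number had 1.01 (0.88 to 1.13) and 0.83 (0.72 to 0.94). IRF7 feature 1 had 2.70 in H1299 and 1.55 in HCT116, and its feature without a number 2.24 and 3.69. HERC5 feature 1 had 0.51 and 0.47. With 1 library per group, a difference of lines and a difference of libraries cannot be told apart.

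**Figure D2:**
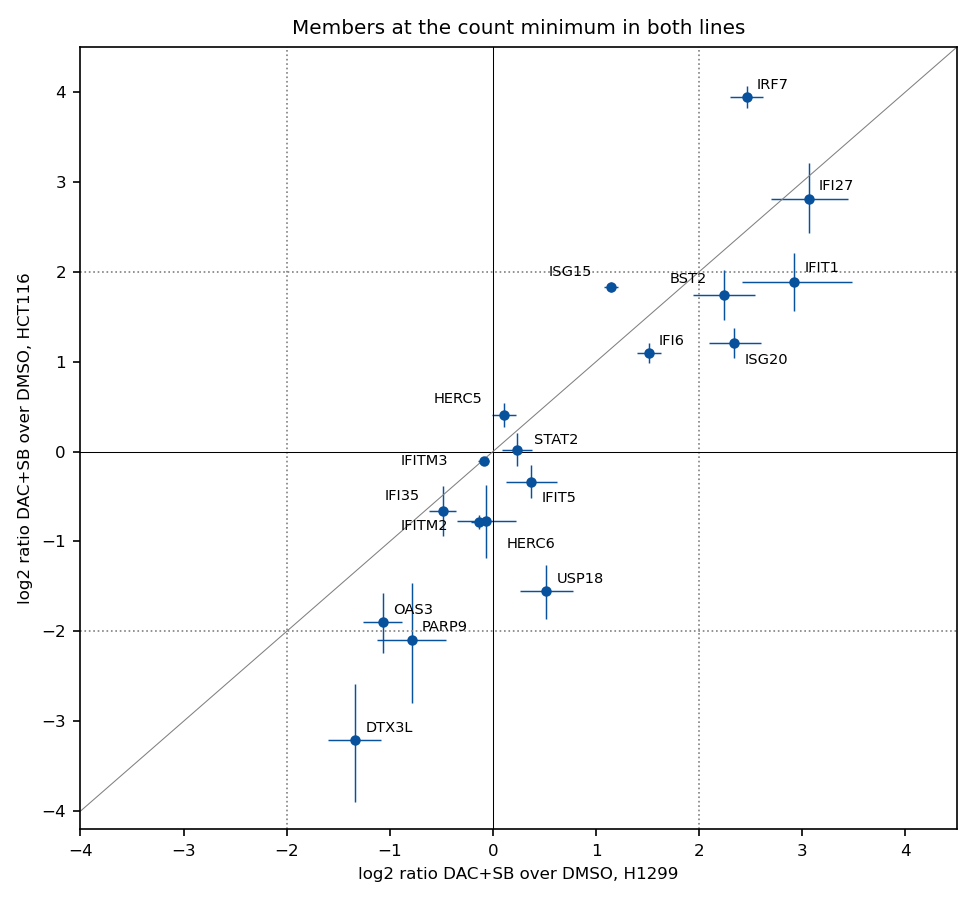
Log2 ratio of DAC+SB over DMSO in H1299 (x axis) and HCT116 (y axis) for the 18 members judged in both lines. Bars are 95% counting intervals, dotted lines mark 4-fold and the slanted line marks equal ratios. IRF7 and ISG15 lie above the slanted line and USP18, DTX3L and PARP9 below it.

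The sum of all members rested on few genes. It went from 290 to 401 CPM in H1299 (log2 ratio 0.47, 0.44 to 0.50) and from 449 to 741 in HCT116 (0.72, 0.70 to 0.75). Without IFITM3, the member with most counts in both DMSO libraries, the log2 ratios were 0.68 and 1.14. Without IRF7 and ISG15 they were 0.18 (0.15 to 0.21) and -0.01 (-0.04 to 0.02). In HCT116 with DAC+SB, IRF7 made up 19.0% and ISG15 30.5% of the summed member counts, against 14.1% for ISG15 with DMSO. These shares are not adjusted for gene length.

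A gene in the deposited table can hold a feature without a number and features numbered 1 or 2. The sources used here do not give what the numbers stand for, nor whether a number names the same feature in each library. Numbered features were listed from 10 counts in a library and features without a number from 1. A numbered feature listed in 1 library only can therefore set a ratio. Of the numbered features of members, 14 were listed in both H1299 libraries, 5 with DAC+SB only and 2 with DMSO only, and in HCT116 15, 4 and 2.

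IRF7 in HCT116 was the case with most counts in such a feature. Its feature 2 held 2988 of 5487 counts with DAC+SB (54.5%) and was not listed in the other 3 libraries. The feature without a number went from 235 to 1881 counts (log2 ratio 3.69, 3.49 to 3.89) and feature 1 from 339 to 618 (1.55, 1.36 to 1.75). Without feature 2 the IRF7 log2 ratio was 2.81, still past the 4-fold rule.

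For IFIT1 and IFI27 such a feature decided the size. IFIT1 feature 2 held 198 of its 275 HCT116 DAC+SB counts and was listed in no other library. Without it the HCT116 log2 ratio was 0.05 instead of 1.88. In H1299 IFIT1 feature 1 had 11 and 175 counts, and with 11 close to the 10 from which such features are listed, nothing was removed there. The H1299 feature without a number had 24 and 82 counts (log2 ratio 1.82, 1.15 to 2.54). IFI27 feature 1 was listed with DAC+SB only, with 379 counts in H1299 and 242 in HCT116. Without it the log2 ratios were 1.37 and 0.46, so IFI27 was no longer at least 4-fold higher in either line. An unlisted feature may be one under the 10 counts from which they are listed. In that case these values drop most DAC+SB counts against fewer than 10 DMSO counts, and understate the change of IFIT1 and IFI27.

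ISG20 showed the reverse. Its feature 2 was listed with DMSO only, with 68 counts in H1299 and 327 in HCT116, while feature 1 had 23 and 380 counts in H1299 and 64 and 545 in HCT116. Over features listed in both libraries the ISG20 log2 ratios were 3.16 and 2.66, above the whole-gene values of 2.34 and 1.21.

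Features of 1 gene also moved apart where both were listed. In HCT116, ISG15 feature 1 went from 42.9 to 190 CPM (log2 ratio 2.14, 2.08 to 2.21) and its feature without a number from 20.5 to 36.3 (0.83, 0.72 to 0.94). IFITM3 in HCT116 had a log2 ratio of 0.25 (0.20 to 0.30) for feature 1 and -1.09 (-1.185 to -1.003) for the feature without a number. The near-equal IFITM3 total in HCT116 was thus a sum of a higher and a lower feature. In HCT116 IFITM1 had 3.24 (2.75 to 3.77) for feature 1 and 1.37 (0.58 to 2.19) for the feature without a number, and IFI6 had 1.27 (1.15 to 1.39) for feature 1 beside the 0.24 given above. HERC5 in H1299 had 0.51 (0.35 to 0.67) for feature 1 and -0.30 (-0.47 to -0.14) for the feature without a number.

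**Figure D3:**
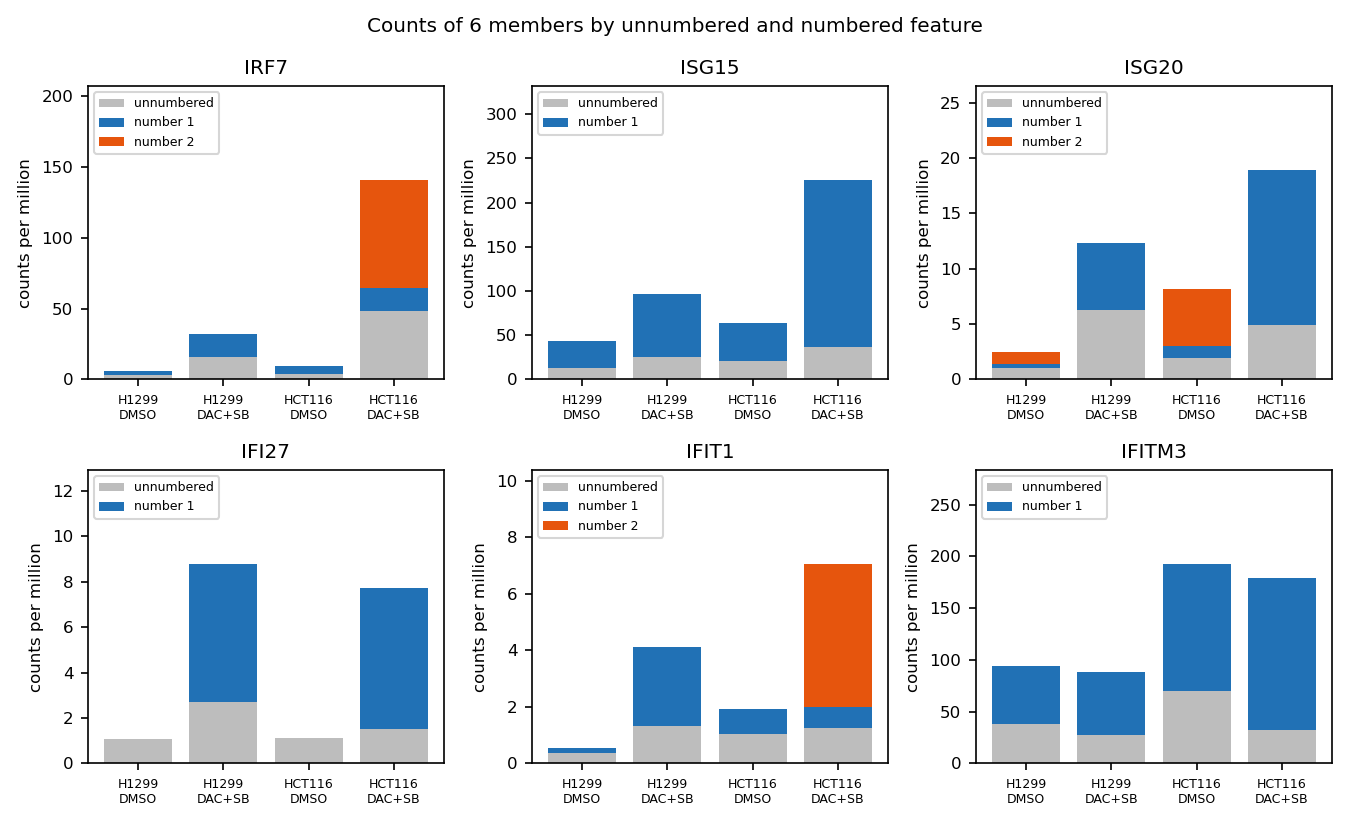
Level in CPM of IRF7, ISG15, ISG20, IFI27, IFIT1 and IFITM3 in the 4 libraries, stacked by the feature without a number (grey) and the features numbered 1 (blue) and 2 (orange). The orange part of IRF7 and IFIT1 stands in the HCT116 DAC+SB library only, and that of ISG20 in the DMSO libraries only.

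Single cells were compared after each was thinned at random to 3300 counts, since depth differed. This left out 402 cells of the HCT116 DAC+SB library and none of the others. Each library is 1 line, so no cell type that should lack these genes was at hand for a background share. ISG15 was found in 11.5% (10.5 to 12.6) of H1299 DMSO cells and 22.3% (21.0 to 23.7) of H1299 DAC+SB cells. In HCT116 the shares were 18.1% (16.8 to 19.4) and 42.8% (41.2 to 44.3). IRF7 was found in 2.26% and 9.88% of H1299 cells and in 3.12% and 33.7% of HCT116 cells. The shares followed the levels for both genes.

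IFI6 and ISG20 were also found in more cells with DAC+SB, and DTX3L in fewer. IFI6 went from 4.19% to 10.4% of cells in H1299 and from 6.86% to 11.9% in HCT116. ISG20 went from 0.755% to 3.78% and from 2.76% to 6.11%. IFIT1, BST2 and IFI27 were found in at most 3.17% of cells in any library. DTX3L went from 69 of 3658 to 5 of 3925 HCT116 cells (1.89% and 0.127%). IFITM3 was found in 25.01% (23.6 to 26.5) and 22.7% (21.3 to 24.0) of H1299 cells, with overlapping intervals, and in 43.8% (42.2 to 45.4) and 39.9% (38.3 to 41.4) of HCT116 cells. Unthinned, ISG15 was found in 38.4% and 56.4% of H1299 cells and in 54.5% and 65.9% of HCT116 cells, and IFITM3 in 68.0% and 60.3%, and in 87.8% and 64.6%.

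**Figure D4:**
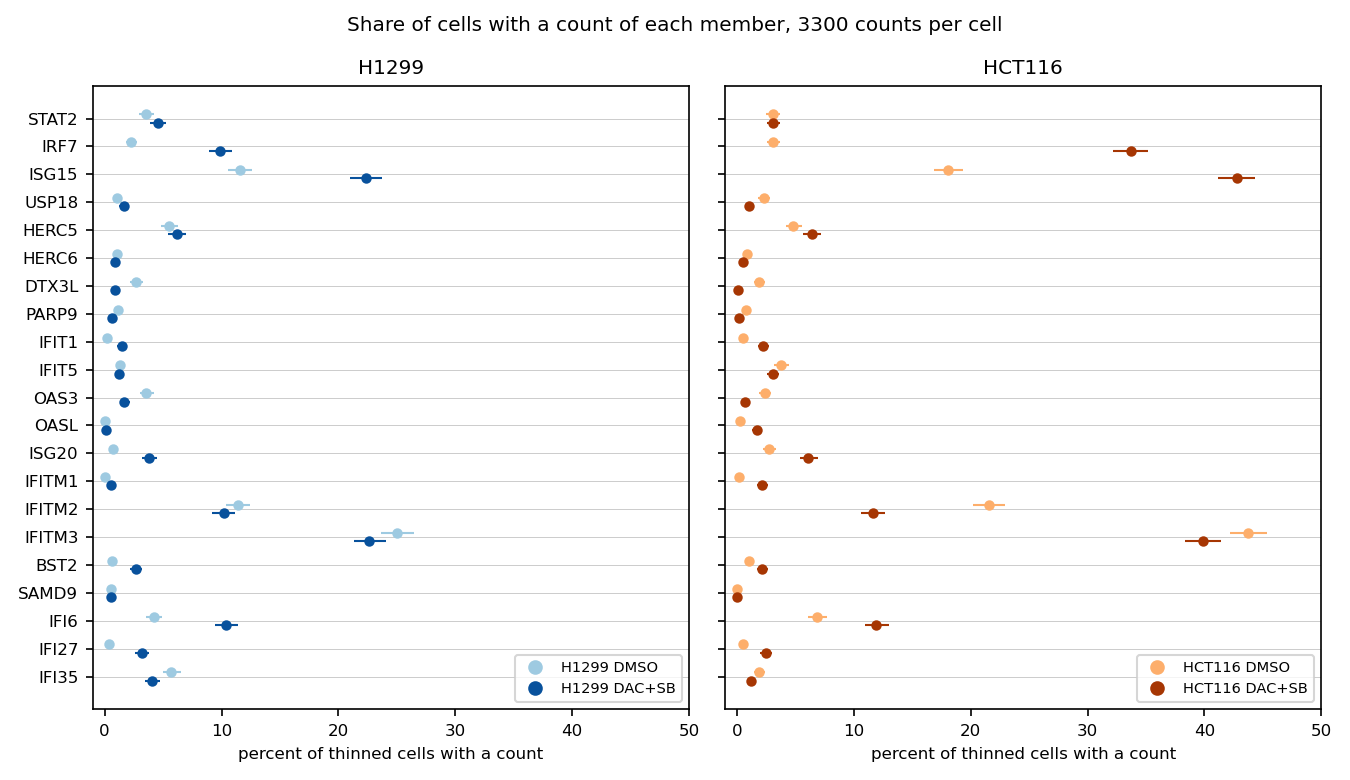
Percent of cells with at least 1 count of each of the 21 members judged in a line, after thinning to 3300 counts per cell, in H1299 (left) and HCT116 (right), with DMSO pale and DAC+SB dark. Bars are exact 95% binomial intervals. ISG15 and IRF7 lie farthest to the right of their DMSO points in HCT116, at 42.8% and 33.7%.

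The thinned H1299 cells held 0.838 members on average with DMSO and 1.11 with DAC+SB, and the thinned HCT116 cells held 1.21 and 1.75. No member was found in 42.5% and 32.5% of the H1299 cells and in 26.1% and 14.0% of the HCT116 cells. Without thinning the HCT116 means had the other order, 3.65 with DMSO and 3.22 with DAC+SB, beside the lower depth of the DAC+SB cells. The 10% of thinned cells with most member counts held 33.8% and 31.3% of the summed counts in H1299 and 29.2% and 28.5% in HCT116. Unthinned, these shares were 27.2% and 29.1%, and 23.6% and 29.6%, so their order depended on the thinning.

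**Figure D5:**
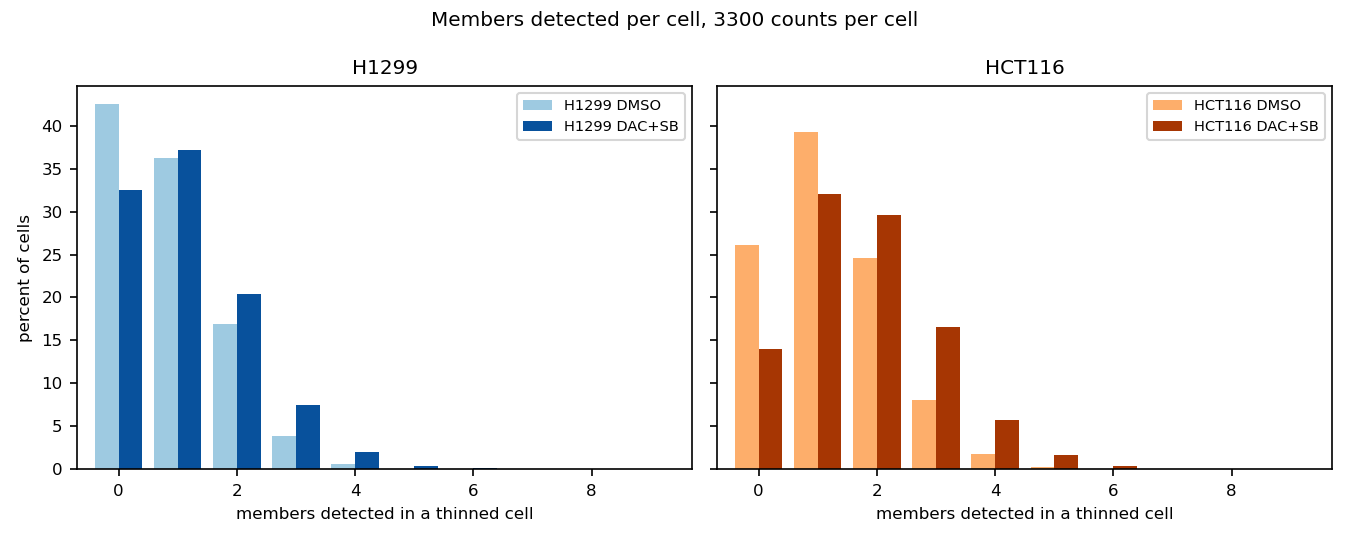
Percent of thinned cells (y axis) by the number of the 36 members detected in them (x axis), in H1299 (left) and HCT116 (right), with DMSO pale and DAC+SB dark. Cells with 0 members were 26.1% and 14.0% of the HCT116 cells and 42.5% and 32.5% of the H1299 cells.

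A few cells carried far more. In the thinned HCT116 DAC+SB cells 68 of 3925 (1.73%, 1.35 to 2.19) held at least 5 ISG15 counts, against 3 of 3658 in HCT116 DMSO and 2 in each H1299 library. A single HCT116 DMSO cell held 117 member counts among 16987 (unthinned), 68.9 per 10000 against a library median of 4.13. It had 72 counts of ISG15, 11 of IFIT1, 7 of IFI6, 4 of IFIT2 and 3 of IFIT3, and 12 members in all. That cell held 11 of the 120 IFIT1 counts, 4 of the 11 IFIT2 counts and 3 of the 18 IFIT3 counts of its library. A H1299 DMSO cell had 68 ISG15 counts among 22680. In the HCT116 DAC+SB library the top cell held 127 member counts among 12495, with 73 of ISG15, 19 of IFI6 and 7 of IRF7. Cells with many counts of several members were thus also present with DMSO.

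In HCT116 DAC+SB, IRF7 was found in a larger share of the cells with ISG15 than of those without it. IRF7 was found in 36.7% (34.4 to 39.1) of cells with ISG15 and in 31.4% (29.5 to 33.4) of cells without it. In H1299 DAC+SB the shares were 11.7% (9.56 to 14.0) and 9.36% (8.33 to 10.5), with overlapping intervals. IFI6 was found in 13.9% of HCT116 DAC+SB cells with ISG15 and in 10.4% of those without. The other pairs examined there had overlapping intervals: IFI6 was found in 12.9% (11.2 to 14.9) of cells with IRF7 and 11.4% (10.2 to 12.7) of those without, and IFIT1 in 2.62% (1.91 to 3.50) of cells with ISG15 and 1.96% (1.43 to 2.62) of those without.

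The cells were also set in quartiles by their TE share of counts, a split chosen after the data were seen. In HCT116 DAC+SB the summed member level was 751 CPM (722 to 782) in the quartile with the lowest TE share and 767 (737 to 797) in the quartile with the highest. ISG15 stood at 193 (178 to 208) and 276 (258 to 294), and IFITM3 at 202 (187 to 219) and 150 (137 to 164), so the 2 genes differed in opposite directions. With DMSO, IFITM3 also stood lower in the quartile with the highest TE share, at 83.4 (73.3 to 94.5) against 108 (96.2 to 120) in H1299. In HCT116 DMSO it stood at 175 (160 to 191) against 203 (187 to 219), with overlapping intervals. In HCT116 DAC+SB, IRF7 stood at 142 in the lowest and 150 in the highest quartile, with overlapping intervals. The highest quartile of HCT116 DAC+SB had fewer counts per cell (8033 against 10074.5 at the median) and a higher mitochondrial share (19.97% against 15.7%). Their part in these differences was not tested. In H1299 DAC+SB IFITM3 stood at 84.9 (74.9 to 95.8) in the lowest and 80.7 (71.0 to 91.4) in the highest quartile, the summed level was 397 and 386 CPM, and ISG15 stood at 89.7 (79.5 to 101) and 98.0 (87.2 to 110).

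Interferon transcripts themselves were rare. Of 21 ligand genes looked for, 11 were in the table. IFNL1, a type III interferon, had 0 and 74 counts in H1299, where its 67 cells held at most 3 each, and 2 and 72 in HCT116, where 1 of its 44 cells held 17. IFNB1, a type I interferon, had 0 and 1 counts in H1299 and 0 and 34 in HCT116, from 19 cells. Most of these counts lay in numbered features listed with DAC+SB only. The features without a number of IFNL1 had 0 and 17 counts in H1299 and 2 and 12 in HCT116, and that of IFNB1 had 0 and 6 in HCT116. IFNE, another type I interferon, had 23 and 29 counts in H1299. With DAC+SB in HCT116, IFNA1 and IFNA5 had 2 counts each, IFNW1 had 1, IFNG 4, IFNL2 3 and IFNL3 4, all from 0 with DMSO, and IFNK had 2 and 3. In H1299 DAC+SB, IFNL3 had 5 counts and IFNA13 had 1, also from 0.

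In HCT116 DAC+SB, 63 cells had a count of IFNB1 or IFNL1, and none had both. The 36 members summed to 1092 CPM (1013 to 1176) in these cells and to 735 (727 to 744) in the other 4264. ISG15 stood at 408 (360 to 460) against 223 (218 to 228), IFI6 at 88.4 (67.0 to 115) against 41.5 (39.5 to 43.6), and IRF7 at 203 (170 to 241) against 140 (136 to 144). IFITM3 stood at 171 (140 to 206) and 179 (175 to 183). IFIT2 had 5 of its 9 counts in these 63 cells. A single cell held 4 of these 5 IFIT2 counts and 127 of the 704 member counts. Without that cell the members summed to 913 CPM (840 to 991), ISG15 stood at 301 (259 to 347), IFI6 at 60.1 (42.5 to 82.5) and IRF7 at 196 (163 to 234). The IFI6 interval then overlapped that of the other cells. The TE share of counts was 4.93% in these cells and 5.58% in the others. In H1299 DAC+SB the 68 such cells and the others had 414 (382 to 448) and 401 (396 to 406) CPM of members, with overlapping intervals. There ISG15 stood at 119 (102 to 138) against 95.6 (93.1 to 98.0), while IRF7 was lower in the cells with an interferon count, at 21.1 (14.4 to 30.0) against 32.3 (30.9 to 33.8). IFI6 was lower there as well, at 21.1 (14.4 to 30.0) against 36.7 (35.2 to 38.3). Cells with an IFNL1 count were deeper than the rest, at a median of 10279 against 8412 counts in HCT116 and 20506 against 15679 in H1299, and HCT116 cells with IFNB1 were shallower, at 7790 against 8475.5. The part of depth in these differences was not tested.

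The receptors and regulators around the members moved in their own ways. Over all genes judged, 11.0% were at least 4-fold higher and 0.349% lower in H1299, and 9.63% and 3.69% in HCT116. Of 9 receptor and Janus kinase genes, 8 were judged in H1299 with none past the 4-fold rule, and 9 in HCT116 with 1 lower: IFNGR2, a chain of the type II receptor, at 48.3 and 9.74 CPM (log2 ratio -2.31). Of 6 further transcription factors, 5 were judged in H1299 with none past the 4-fold rule. All 6 were judged in HCT116, with IRF2 lower at 419 and 50 counts (-2.38). Of 7 negative regulators, all judged in both lines, SOCS1, an inhibitor of Janus kinases that interferon induces, was at least 4-fold higher in both. SOCS1 had 14 and 218 counts in H1299 (4.01, 3.23 to 4.90) and 107 and 825 in HCT116 (3.63, 3.34 to 3.94). PTPN6, a phosphatase, had 6 and 364 counts in H1299 (5.97, 4.83 to 7.43) and 1630 and 669 in HCT116 (-0.60).

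Of 13 nucleic acid sensors and adaptors, 11 were judged in H1299, with 1 at least 4-fold higher and none lower. In HCT116, 10 were judged, with 1 higher and 2 lower. DHX58 (LGP2, a relative of the sensor RIG-I) was higher in both lines, with 12 and 156 counts in H1299 (log2 ratio 3.75) and 74 and 246 in HCT116 (2.42). EIF2AK2, the kinase PKR that double-stranded RNA turns on, went from 69.2 to 10.2 CPM in HCT116 (-2.77, -2.92 to -2.62), and from 68.2 to 27.1 in H1299 (-1.33). TMEM173, the adaptor STING, went from 420 to 55 counts in HCT116 (-2.25, or -1.98 over features listed in both libraries), while H1299 had 206 and 251. SOCS1 and DHX58 thus stood with IRF7 and IFI27 as genes of this pathway at least 4-fold higher in both lines. Over all 12644 genes judged in both lines 4.68% were, and SOCS1 and DHX58 were named because they passed that rule. Of these named genes, IFI27 alone missed that size over features listed in both libraries of a line. EIF2AK2 stood with DTX3L, PARP9 and OAS3 among the genes at a lower level in both lines. A lower level was common, with log2 ratios below 0 for 7900 of 14610 genes in H1299 and 8041 of 13539 in HCT116.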

How the data were processed

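The authors deposited whole-number counts in 2 tables, one of genes and one of transposable elements, each giving a feature, a cell and its count. Per the labels' protocols, single cells were captured with the 10x 5′ chemistry. Per the submitters' processing notes, the tools named are CASAVA and STAR and the build is GRCh38 (hg38), and the sources used here give neither their roles nor their versions. Each cell's library was read from the ending of its barcode. Counts of a gene were summed over all its features, leaving out the 2419 names that join several genes. Ratios used exact conditional binomial intervals, levels exact Poisson intervals and shares exact Clopper-Pearson intervals, all at 95% and for counting error only. The difference between lines used a normal approximation. A count of 0 was set to 3 in a ratio. All listed cells were used and doublets were not called. Alternatives changed the denominator, the features, the cells, the minimum, the fold and the thinning. Calculations used Python 3.11.15, numpy 2.4.6, scipy 1.17.1 and pandas 2.3.3. The ratios with their calls and intervals and the thinning were tested on simulated data. Gene positions came from GENCODE v29. All 36 members are named, in order of role, and other genes only where they are ligands with a count, IRF1 or past the 4-fold rule in a list of the pathway. The cell markers PTPRC, CDX1, TFF3, LGALS4 and EPCAM were named after their values were seen. The rule as first written also took marker genes past 4-fold, and some genes it names are not reported here. Analyses of co-detection, TE quartiles, cells with an interferon count and top cells were chosen after the data were seen. The members and lists were chosen with earlier results of these data known.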

Additional observations from a re-analysis of the deposited data

Results flagged for a closer look

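USP18 and IFIT5 had ratios of opposite sign in the 2 lines, each beyond its own counting interval, and the difference between lines has no replicate and was not tested. For USP18 the H1299 minus HCT116 difference in log2 ratio was 2.07, from 221 and 306 counts in H1299 and 530 and 112 in HCT116. Feature 1 of USP18 had 307 and 41 counts in HCT116 against 106 and 137 in H1299, and a feature 2 with 48 counts was listed in H1299 DAC+SB only. Without feature 2 the H1299 log2 ratio of USP18 was 0.27 (0.01 to 0.54), and the difference was 1.83 (1.44 to 2.22). For IFIT5 the difference was 0.71, from 245 and 307 counts in H1299 and 747 and 368 in HCT116.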

How the results depend on the processing

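No paired analysis was possible because each group is 1 library. Denominators of gene counts only put the summed log2 ratio at 0.51 in H1299 and 0.80 in HCT116. With gene plus TE counts as denominator and without IFITM3 it was 0.68 and 1.14. With numbered features left out unless both libraries listed them, the HCT116 sum was 0.56, members at least 4-fold lower numbered 1 there (PARP9 was lost at -1.93), and IFI27 was lost in both lines while ISG20 was gained in HCT116. As a mean over cells of each cell's CPM, the HCT116 sum was 0.68 and 1 member was at least 4-fold lower (PARP9 was lost), while IFIT1 was gained among the higher ones. At a minimum of 20 counts 8 of 28 members were higher in H1299, beside 19.9% of genes, and 5 of 24 in HCT116, beside 18.6%. At a minimum of 1 count 9 of 36 were higher in H1299 and 8 of 36 in HCT116, beside 15.1% and 16.6%. The 2-fold rule gave 9 higher and 4 lower in HCT116 and 2 lower in H1299. Members detected per cell without thinning averaged 3.10 (DMSO) and 3.71 (DAC+SB) for H1299 cells, against 3.65 and 3.22 for HCT116 cells, where thinning reverses that order. Of the single-member ratios under 7 alternatives, 260 stayed within their counting interval and 13 moved outside it, and among members judged only HERC6 in H1299 and STAT2 in HCT116, both near 0, changed sign. The alternative that added names joining several genes could change no judged ratio, since only IFIT2 and IRF9 had such names. Leaving out numbered features could change only members with a feature listed in 1 library of a line. The 260 thus include outcomes that were fixed beforehand. Line differences over features listed in both libraries, and the interferon cells of HCT116 without the one with most member counts, were chosen after seeing the data. For the line differences 16 of 18 intervals left out 0, against 14 with all features (beside 75.9% and 76.1% of genes), and none changed sign. In neither line did 15 members reach the minimum, and whether depth or a low level set this was not tested, nor was the cause of the other shifts.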
